A study of Homo sapiens with 11 samples.

Results

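The elements described here are the long terminal repeats (LTRs) of the ERVK retroviruses other than LTR5. They were taken by name, as every repeat element of the ERVK family whose name begins neither with HERVK (the internal part of a provirus) nor with LTR5. The rule found 7140 elements among the 5622516 in the deposited tables, in 28 subfamilies that were put by the start of their names into 6 groups: MER11 with 2706 elements, MER9 with 1307, LTR22 with 958, LTR13 with 782, LTR14 with 745 and LTR3 with 642. The cells were HCT116, an established human colorectal cancer line. One siRNA targeted Staufen1 (siStau1), a protein that binds double-stranded RNA, and a control siRNA targeted luciferase (siLuc). Cells were given either DMSO, the solvent, or decitabine (DAC), a nucleoside that inhibits DNA methylation, at 500 nM over 5 days. J2 is an antibody that recognises double-stranded RNA, and the RNA it bound was sequenced once per condition, in siLuc cells with DMSO or DAC and in siStau1 cells with DAC. Total RNA libraries came in pairs, 2 for each of 4 conditions, and include siStau1 DMSO, for which no J2 library was analysed here. The protocol text that all samples share names an antibody against Staufen1 for the enrichment, whereas the labels of the 3 enriched samples name J2, so which antibody was used is uncertain.

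LTRs are the ends of a provirus. They hold its promoter and enhancer, its polyadenylation signal and no gene, and most copies in the human genome stand alone, left behind when the internal genes were lost. Each group here belongs with an internal part of its own: MER11 flanks HERVK11, MER9 flanks HERVK9, and LTR13, LTR14, LTR22 and LTR3 flank HERVK13, HERVK14, HERVK22 and HERVK3. LTRs are commonly held silent by DNA methylation and by KRAB zinc finger proteins, which recruit TRIM28 and the histone methyltransferase SETDB1. ZNF808 is such a zinc finger protein and is known to bind MER11. A copy near a gene can act as an alternative promoter or enhancer when it is not silenced. The deposited names give a subfamily and numbers whose meaning is not stated, without position or sequence, so no copy can be placed in the genome, in a gene or beside its internal part.

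The 3 J2 libraries had 71473124, 68944777 and 83037330 reads on repeat elements, in the order siLuc DMSO, then siLuc DAC, then siStau1 DAC, which is kept for every run of 3 values below. With 1 library per group there is no replicate check, and the differences were not tested. Intervals are at 95%. Those of shares, sums and differences between groups cover counting error only. Those of medians per element cover the spread between elements of the same libraries, and elements are not replicates. Even read numbers were more common than odd ones. In siLuc DMSO, 888 of these elements had 2, 4 or 6 reads, against 150 with 1, 3 or 5. Counting the 2 mates of each read pair would give such a pattern, and the intervals for counting error would then be too narrow. STAU1, the knockdown target, was at 35.5 FPKM (siLuc) and 30.0 (siStau1) with DMSO, and at 33.7 (siLuc) and 27.1 (siStau1) with DAC, in the authors' deposited table, whose q-values for the 2 differences are 0.767 and 0.685. The labelled cell type was set against its markers in the same table, with values for siLuc DMSO, then siLuc DAC. The epithelial genes were all present, and EPCAM was lower with DAC (259 and 117 FPKM). CDH1 (14.3 and 26.5), KRT8 (1103 and 3159), KRT18 (681 and 3469) and KRT19 (537 and 1419) were higher. The q-values of the same table were 0.0157 for EPCAM and 0.0016 for KRT19. For CDH1, KRT8 and KRT18 they were 0.0862, 0.196 and 0.0773, not under 0.05. Of the intestinal genes, CDX2 was at 7.31 and 7.11, and CDX1 was listed at 0 and 0.947. VIL1 was at 0.029 and 0.164, and CEACAM5 was listed at 0 and 0.0715. Of the 3 markers of other cell types, PTPRC and PECAM1 were listed at 0 in siLuc DMSO and at 0.174 and 0.633 FPKM in siLuc DAC, and the collagen gene COL1A1 was at 1.59 and 8.60. The q-values were 0.0016 for CDX1 and PECAM1, 0.983 for CDX2 and 0.0587 for COL1A1. VIL1, CEACAM5 and PTPRC were not tested. The part of such shifts in the results below was not tested.

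ERVK LTRs made up a small share of the J2 reads, and a single copy held 44.3% to 55.4% of that share, depending on the library. They took 133866, 147231 and 160187 reads, which is 0.187% (Wilson interval 0.186% to 0.188%), 0.214% (0.212% to 0.215%) and 0.193% (0.192% to 0.194%) of the reads on repeats. Of the reads on the LTR class alone they took 3.51%, 3.24% and 2.79%. Reads were found on 2150, 2048 and 2408 of the elements. Over the 3 libraries 4117 elements had no read (57.7%, against 65.6% of all repeat elements), 933 had reads in 1 library, 597 in 2 and 1493 in all 3 (20.9%, against 16.2%). The number with at least 100 reads was 138, 185 and 205.

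MER11B_5954, a copy of subfamily MER11B, had 74167, 69682 and 71023 reads. That is 55.4%, 47.3% and 44.3% of all reads on these LTRs, and it ranked 10th among all repeat elements and 2nd in the LTR class over the 3 libraries. Its level was 1038, 1011 and 855 reads per 1000000 reads on repeats (RPM). At this scaling the levels of the first 2 libraries lay close together, with a log2 ratio of −0.04 (−0.05 to −0.02). The siStau1 DAC level was lower than that of siLuc DAC by a log2 ratio of −0.24 (−0.26 to −0.23). Both statements depend on the scaling. The authors' factors shift these 2 ratios by 0.89 and −0.32, and totals of reads outside Alu elements shift them by −0.32 and 0.21. The next most read copy, LTR14B_4127, had 4775 reads over the 3 libraries. Because of this copy, sums are given with and without it: without it the elements had 59699, 77549 and 89164 reads, or 0.0835%, 0.112% and 0.107% of the reads on repeats.

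**Figure D1:**
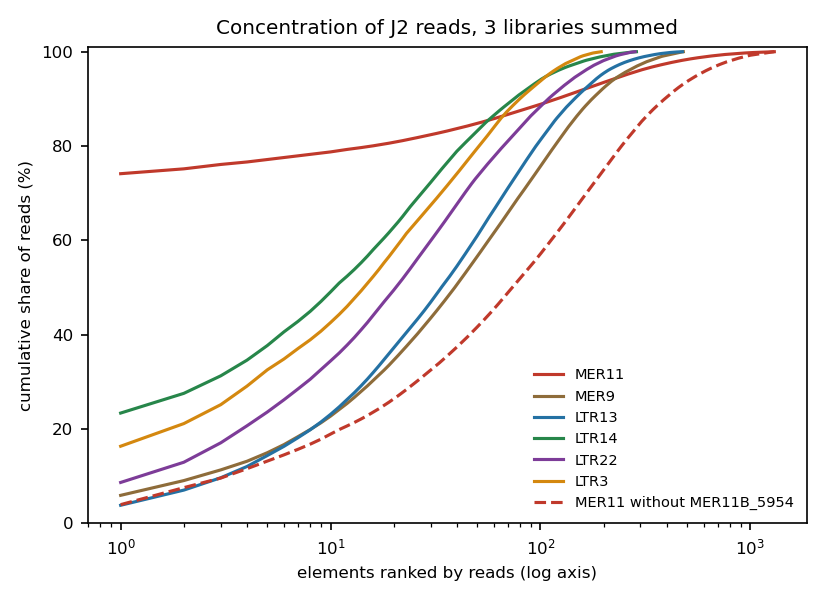
Cumulative share of J2 reads (percent, 3 libraries summed) against elements ranked by their reads (log axis), 1 line per group. The solid MER11 line starts at 74.1%, the share of MER11B_5954, while the dashed line without it rises slowly and passes 50% only at 74 elements.

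The groups differed in how their reads were spread over copies. In MER11, 1 copy held over 50% of the reads, and 74 copies did so once MER11B_5954 was left out. The number was 40 in MER9, 34 in LTR13, 21 in LTR22, 15 in LTR3 and 11 in LTR14. The most read LTR14 copy, LTR14B_4127, held 16.0%, 27.5% and 23.8% of its group's reads. LTR3_2194 held 18.4%, 16.0% and 15.6% of the LTR3 reads, and LTR22A_3517 held 8.67%, 8.55% and 8.81% of the LTR22 reads.

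LTR13 had the most reads per copy. With 782 of the 7140 elements it held 46.4%, 38.4% and 40.8% of the reads without MER11B_5954, and 60.7% of its copies had a read in some library, against 48.2% in MER11, 38.5% in LTR14, 36.7% in MER9, 30.4% in LTR3 and 29.5% in LTR22. Its mean was 35.4, 38.1 and 46.5 reads per copy. Without MER11B_5954 the MER11 mean was 6.63, 9.91 and 11.2, and the LTR22 mean was 2.58, 4.54 and 4.74. Of 89 elements with at least 500 reads over the 3 libraries, 57 were LTR13 copies, 22 MER11 and 6 LTR14. These are reads per copy, not per length: the files used here give no element lengths, so a longer copy and a more abundant one cannot be told apart. How reads from near-identical copies were assigned is not given in the sources used here either, and values of single copies are uncertain for that reason.

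**Figure D2:**
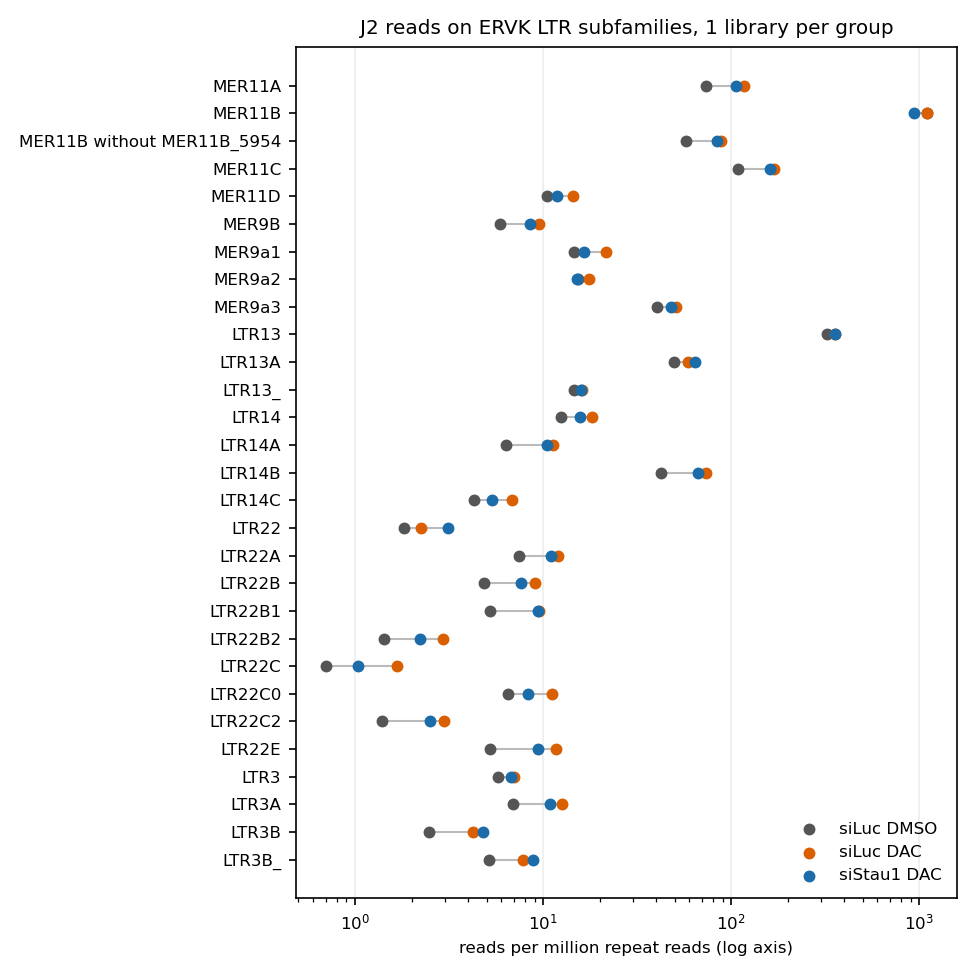
J2 reads per 1000000 reads on repeats (RPM, log axis) on each of the 28 subfamilies, with MER11B also shown without MER11B_5954, 1 point per library. MER11B stands highest through its 1 copy, LTR13 follows at 324, 357 and 358, and the siLuc DMSO point is the lowest except in MER11B and MER9a2.

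The first comparison, siLuc DAC over siLuc DMSO, addresses what decitabine does to J2-bound ERVK LTR RNA in control cells. All 28 subfamilies had a higher share of repeat reads with DAC, 26 of them with an interval above 0, and 21 were higher with totals outside Alu, where MER11B, MER9a2, subfamilies LTR22 and LTR3 and the 3 subfamilies of the LTR13 group turned lower. With MER11B_5954 left out, the size of the difference was graded: smallest in LTR13, next in MER9 and largest in LTR22. MER11 outside its most read copy, LTR3 and LTR14 lay between MER9 and LTR22. This order depended on single copies. Whole MER11 was at 0.12, below LTR13 at 0.16. LTR14 without LTR14B_4127 was at 0.53, below MER11 outside its most read copy at 0.63 and LTR3 at 0.64. For all elements together the log2 ratio of summed reads was 0.19 (0.18 to 0.20), and 0.43 (0.41 to 0.44) without MER11B_5954. The order of the groups does not depend on the scaling, but the sign can: the log2 ratio of all elements was 1.08 with the authors' factors and −0.13 with totals of reads outside Alu elements. Relative to the scaling used here, the authors' factors shift every log2 ratio of this comparison by 0.89 and the totals outside Alu by −0.32.

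LTR22 had 34.5, 63.1 and 54.7 RPM. Its log2 ratio of siLuc DAC over siLuc DMSO was 0.87 (0.80 to 0.94), and all 9 of its subfamilies were higher with DAC. LTR22E went from 5.25 to 11.7 RPM, a log2 ratio of 1.15 (0.98 to 1.33), and LTR22B from 4.84 to 9.11, a log2 ratio of 0.91 (0.72 to 1.11). The highest ratio of any subfamily, 1.25 (0.76 to 1.76), was that of LTR22C, but it rested on 50 and 115 reads. In subfamily LTR22 itself the ratio was 0.31 (−0.04 to 0.65), an interval that includes 0.

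LTR14 had 65.5, 110.0 and 98.1 RPM, and its log2 ratio of siLuc DAC over siLuc DMSO was 0.75 (0.70 to 0.80). Without LTR14B_4127 it was 0.53 (0.48 to 0.59). With all copies, the 4 subfamilies lay between 0.53 (LTR14, 0.41 to 0.66) and 0.84 (LTR14A, 0.67 to 1.01). LTR14B was at 0.80 (0.74 to 0.87), but at 0.45 (0.37 to 0.53) without LTR14B_4127, below the other subfamilies. LTR14B_4127 had 749, 2090 and 1936 reads, low in siLuc DMSO and high in both DAC libraries, with log2 ratios to siLuc DMSO of 1.53 in siLuc DAC and 1.15 in siStau1 DAC. LTR3 had 20.3, 31.6 and 31.3 RPM and a log2 ratio of 0.64 (0.54 to 0.74), with LTR3A at 0.86 (0.70 to 1.03) and subfamily LTR3 at 0.28 (0.09 to 0.48). The value of subfamily LTR3 rested mostly on LTR3_2194, which held 64.8%, 71.9% and 72.3% of its reads. Without that copy the whole LTR3 group was at 0.68 (0.58 to 0.79).

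MER11 without MER11B_5954 had 251, 389 and 364 RPM, and its log2 ratio of siLuc DAC over siLuc DMSO was 0.63 (0.61 to 0.66). With that copy the ratio was 0.12 (0.11 to 0.13). The 3 large subfamilies had nearly the same ratio: 0.68 (0.63 to 0.73) in MER11A, 0.62 (0.57 to 0.68) in MER11B without its most read copy and 0.62 (0.58 to 0.66) in MER11C. MER11D was at 0.47 (0.33 to 0.61). The difference was spread over copies, since the median ratio of MER11 copies was 0.82 at 20 to 49 reads, 0.82 from 50 to under 200 reads and 0.78 at 200 or more. Among its most read copies, MER11C_8745 had 511, 969 and 1219 reads, high in both DAC libraries, and MER11C_8628 had 847, 981 and 1151, with a log2 ratio of 0.26.

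MER9 had 76.3, 99.2 and 87.7 RPM, and its log2 ratio of siLuc DAC over siLuc DMSO was 0.38 (0.33 to 0.43). The subfamilies differed among themselves: MER9B was at 0.68 (0.50 to 0.86), MER9a1 at 0.56 (0.45 to 0.68), MER9a3 at 0.33 (0.26 to 0.40) and MER9a2 at 0.18 (0.06 to 0.30).

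LTR13 had 388, 432 and 438 RPM, and its log2 ratio of siLuc DAC over siLuc DMSO was 0.16 (0.13 to 0.18), or −0.17 with totals outside Alu. LTR13A was at 0.25 (0.19 to 0.32), and subfamily LTR13 at 0.14 (0.12 to 0.17). Its most read copies went both ways. LTR13_8195 (724, 1430 and 865 reads) and LTR13_6485 (434, 947 and 802) were at least 2-fold higher in siLuc DAC, with log2 ratios of 1.03 and 1.18. LTR13_7717 had 1046, 387 and 1026 reads, low in siLuc DAC alone, with a log2 ratio of −1.38. LTR13_8107 (1156, 970 and 1480) and LTR13_7967 (673, 578 and 988) were slightly lower in siLuc DAC, at −0.20 and −0.17, and LTR13_8161 (487, 711 and 627) was at 0.60.

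The difference of each group from LTR13 cancels the scaling. In siLuc DAC over siLuc DMSO it was 0.71 (0.64 to 0.79) for LTR22, 0.59 (0.54 to 0.65) for LTR14 (0.38, 0.32 to 0.44, without LTR14B_4127, below LTR3 and MER11), 0.48 (0.38 to 0.58) for LTR3, 0.48 (0.44 to 0.51) for MER11 without its most read copy and 0.22 (0.17 to 0.28) for MER9. Each of these intervals lies above 0, with counting error as the only error covered. The internal parts had ratios of 1.15 for HERVK14, 0.95 for HERVK9, 0.90 for HERVK3, 0.84 for HERVK11, 0.70 for HERVK22 and 0.43 for HERVK13. HERVK13 was thus the lowest of the internal parts, as LTR13 was of the LTR groups with MER11B_5954 left out. Only in LTR22 was the LTR ratio above that of its internal part. Single copies weigh on these sums: 1 copy held 31.8%, 33.3% and 34.3% of the HERVK13 reads. The most read copy held 34.7%, 24.7% and 29.4% in HERVK3, and 27.3%, 29.4% and 25.8% in HERVK22. Ratios of internal parts without such copies were not computed. For scale, HERVK internal parts and LTR5 together were at 0.50 and all other LTR class elements at 0.31.

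**Figure D3:**
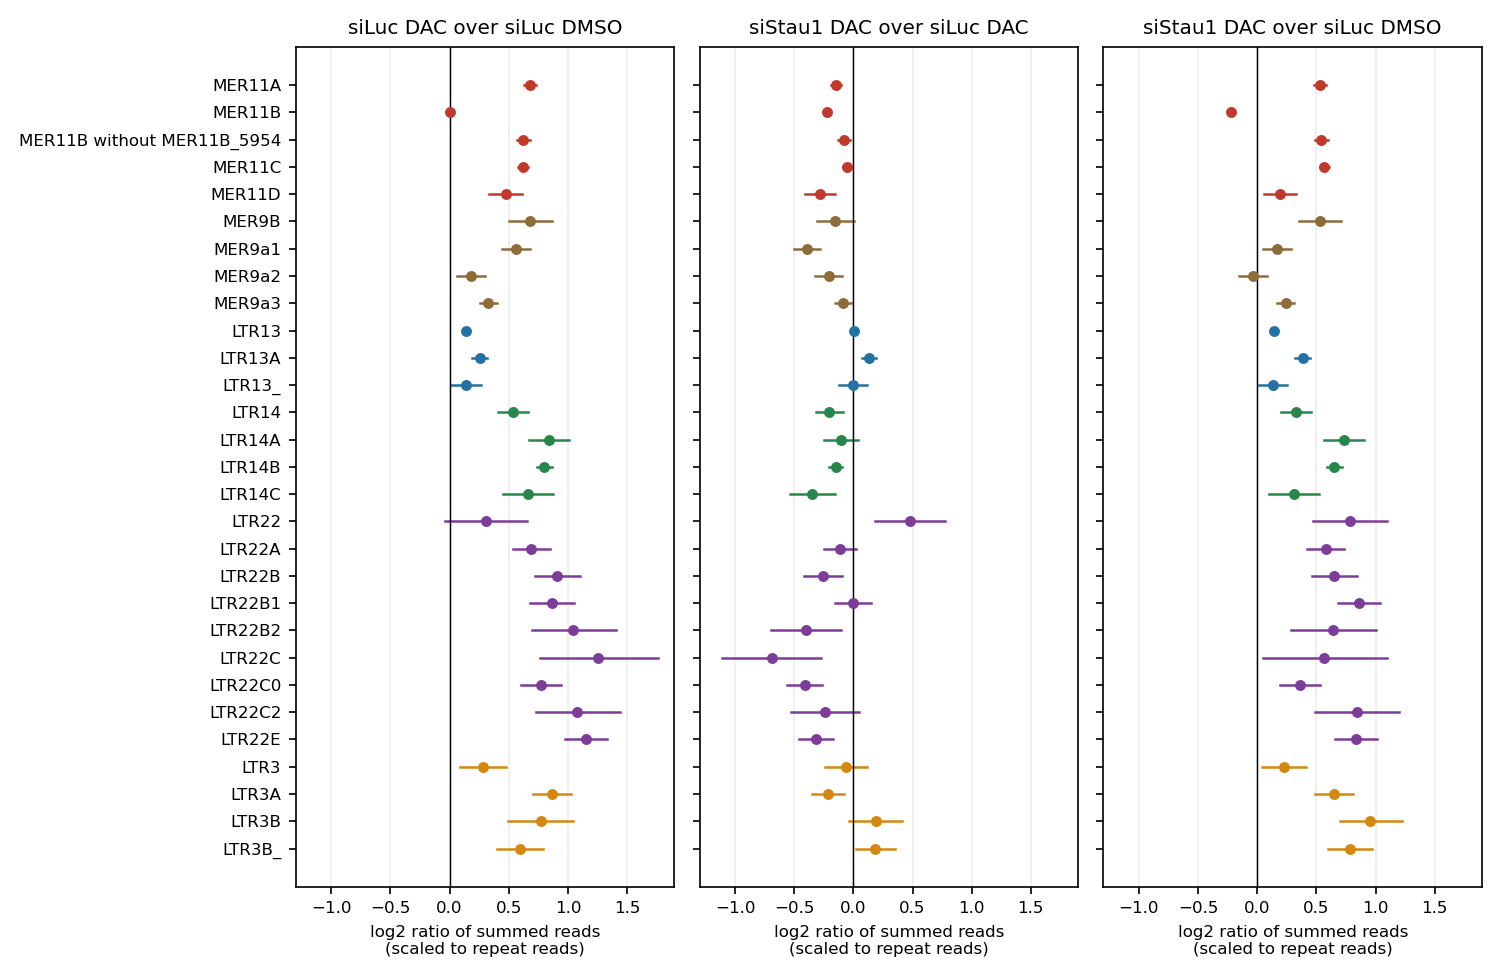
Log2 ratio of summed J2 reads per subfamily in the 3 comparisons, scaled to the reads on all repeats, with bars for the exact binomial 95% interval (counting error only) and 1 colour per group. In the left panel all 28 points are at or right of 0, with MER11B nearest to it, and 21 would be with totals outside Alu. In the middle panel 5 are right of 0, and 16 would be with totals outside Alu.

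Copy by copy, LTR22 was again the highest group and LTR13 the lowest. Of 979 copies that reached 20 reads over both libraries, 330 (33.7%) were at least 2-fold higher in siLuc DAC and 67 (6.84%) at least 2-fold lower. Over all repeat elements with as many reads the shares were 21.3% and 17%, and over the LTR class 35.8% and 12.7%. The split was 651 higher and 31 lower with the authors' factors, and 227 higher and 118 lower with totals outside Alu. By group, 159 of 383 MER11 copies were higher and 23 lower, 43 and 13 of 146 in MER9, 30 and 23 of 241 in LTR13, 34 and 4 of 88 in LTR14, 44 and 1 of 75 in LTR22, and 20 and 3 of 46 in LTR3. The median log2 ratio per element was 0.55 (0.48 to 0.66), against 0.01 for all repeat elements and 0.57 for the LTR class. It was 1.17 (0.91 to 1.38) in LTR22, 0.86 (0.30 to 1.56) in LTR3, 0.81 (0.71 to 0.90) in MER11, 0.56 (0.28 to 0.94) in LTR14, 0.39 (0.16 to 0.66) in MER9 and 0.09 (−0.02 to 0.25) in LTR13. With elements at 0 reads set to a floor of 3 reads, the median of all 979 was 0.57.

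**Figure D4:**
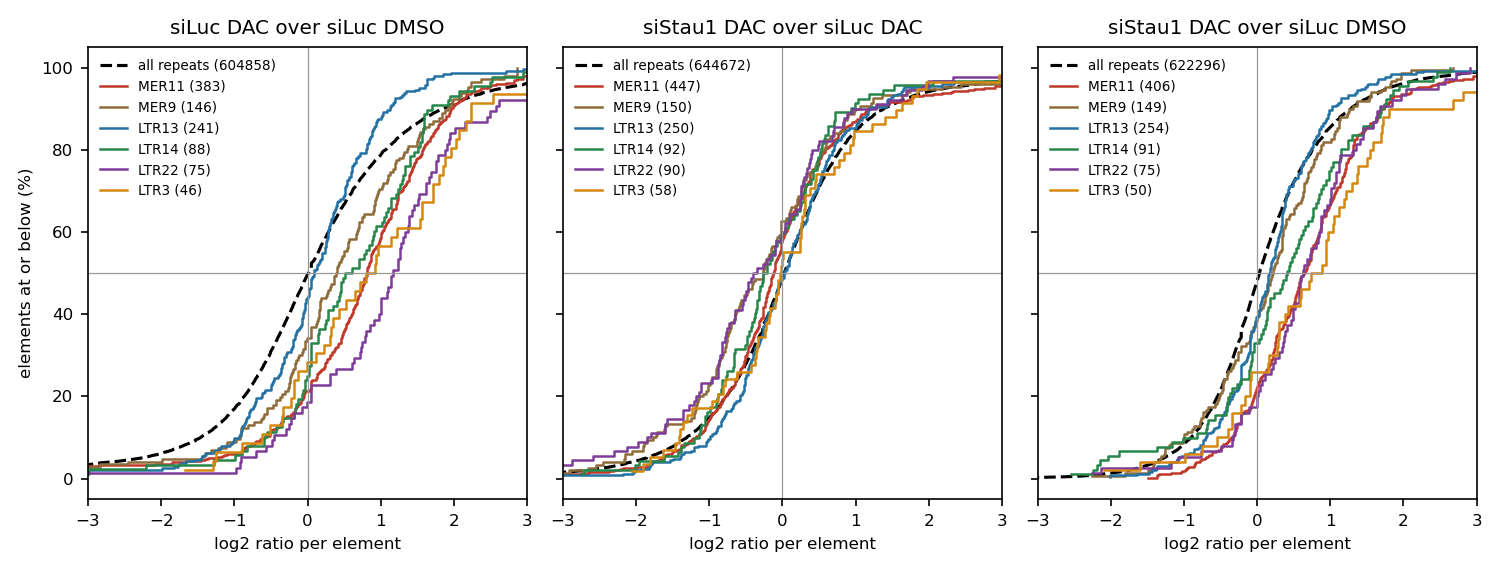
Cumulative share of elements (percent) at or below a log2 ratio per element, for elements that reached 20 reads over the pair of libraries in each panel (numbers in the legends); the dashed line is all repeat elements. In the left panel the LTR13 line crosses 50% at 0.09, near the dashed line, and the other groups cross it at 0.39 (MER9) to 1.17 (LTR22).

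Among elements with at least 100 reads over the 3 libraries, the highest copies in siLuc DAC over siLuc DMSO were LTR22B1_2259 (7, 72 and 51 reads, log2 ratio 3.32), LTR22B_3310 (9, 54 and 61, 2.57) and MER11A_3694 (20, 109 and 79, 2.47). All 3 were low in siLuc DMSO and high in both DAC libraries. The lowest were 3 copies without a read in siLuc DAC: MER11B_6765 (87, 0 and 60 reads), LTR13A_7362_2 (70, 0 and 166) and MER11B_6997 (68, 0 and 94). With 3 reads as the floor for siLuc DAC, the log2 ratios were at most −4.81, −4.49 and −4.45.

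**Figure D5:**
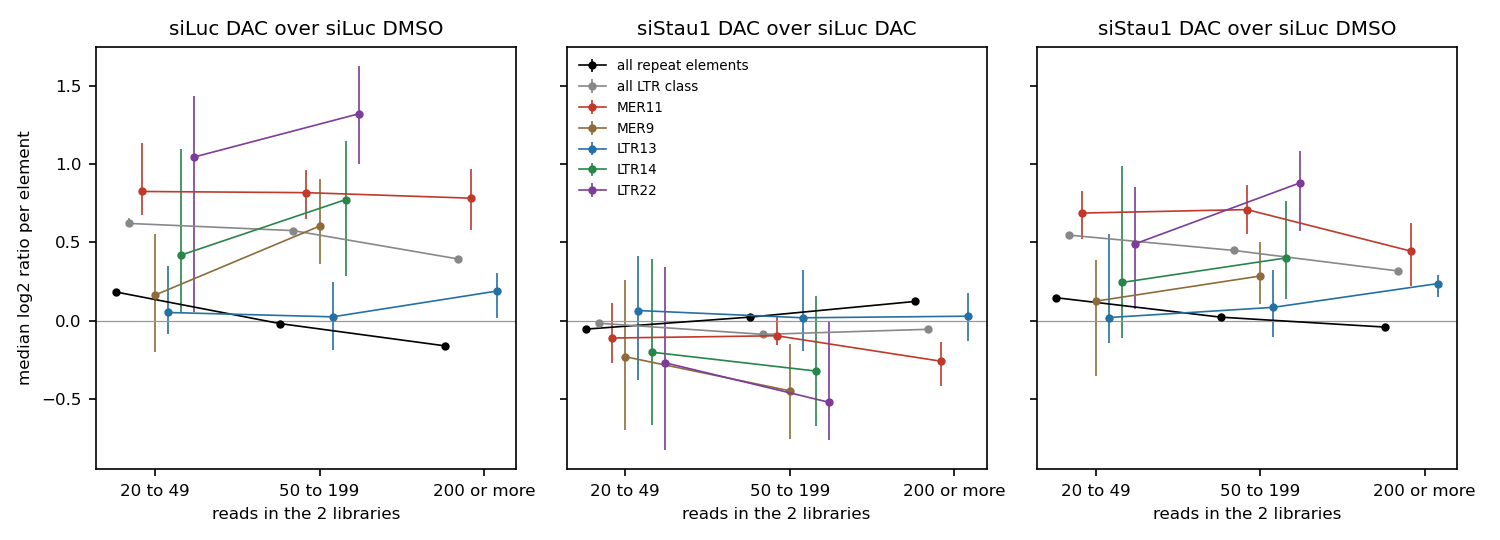
Median log2 ratio per element in 3 bins of reads in the 2 libraries compared, with order-statistic 95% intervals; sets with under 20 elements in a bin are left out. MER11 stays between 0.78 and 0.82 in the left panel and LTR13 between 0.02 and 0.19, while the median of all repeat elements goes from 0.18 in the lowest bin to −0.16 in the highest.

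The second comparison, siStau1 DAC over siLuc DAC, addresses the knockdown under decitabine. It uses the same siLuc DAC library as the first, so the comparisons are not independent, and the values are given side by side without a test of their relation. Most subfamilies were somewhat lower in siStau1 DAC when scaled to reads on all repeats. The log2 ratio of all elements was −0.15 (−0.16 to −0.14), and −0.067 (−0.081 to −0.053) without MER11B_5954, but 0.062 with totals outside Alu and −0.47 with the authors' factors, so the scaling sets the direction. Of the 28 subfamilies 5 were higher, against 16 with totals outside Alu and 1 with the authors' factors.

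LTR22 was at −0.21 (−0.27 to −0.15), MER9 at −0.18 (−0.23 to −0.13), LTR14 at −0.17 (−0.21 to −0.12) and MER11 without its most read copy at −0.10 (−0.12 to −0.07). Outside Alu these were slightly positive, at 0.003, 0.03, 0.04 and 0.11. LTR13 (0.02, −0.002 to 0.04) and LTR3 (−0.02, −0.10 to 0.07) had intervals that include 0, but they were at 0.23 and 0.19 with totals outside Alu and at −0.30 and −0.34 with the authors' factors. The difference from LTR13, free of scaling, was −0.23 (−0.29 to −0.16) for LTR22, −0.20 (−0.25 to −0.15) for MER9, −0.19 (−0.24 to −0.14) for LTR14 (−0.11, −0.17 to −0.06, without LTR14B_4127), −0.12 (−0.15 to −0.08) for MER11 without its most read copy and −0.04 (−0.12 to 0.05) for LTR3. Subfamilies that stood above 0 with their interval were LTR22 (0.48, 0.19 to 0.77, on 155 and 260 reads), LTR3B_ (0.18, 0.02 to 0.35) and LTR13A (0.13, 0.07 to 0.19), at 0.16, −0.14 and −0.19 with the authors' factors. HERVK13, the internal part of LTR13, was at 0.33 (0.25 to 0.41), or 0.0053 with the authors' factors, and the internal parts of the other groups were below 0, from −0.40 (HERVK14) to −0.16 (HERVK3), although HERVK3 and HERVK22 were at 0.045 and 0.027 with totals outside Alu.

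Of 1087 elements with at least 20 reads, 136 (12.5%) were at least 2-fold higher and 169 (15.5%) at least 2-fold lower in siStau1 DAC, close to the 15.5% and 14.8% of all repeat elements, and 18.4% and 17.1% in the LTR class. The split was 98 and 271 with the authors' factors, and 174 and 119 with totals outside Alu. The median per element was −0.11 (−0.17 to −0.06), or 0.10 with totals outside Alu, and it ran from −0.37 (−0.65 to 0.03) in LTR22 to 0.03 (−0.09 to 0.14) in LTR13. The lowest copies were LTR14C_4506 (35, 82 and 25 reads, −1.96), MER9a1_3879 (42, 54 and 21, −1.61) and MER11B_7020 (20, 67 and 28, −1.51), and each had its highest count in siLuc DAC. The highest were again copies without a read in siLuc DAC: LTR13A_7362_2, MER11C_7647 (44, 0 and 95 reads) and MER11B_6997, at log2 ratios of at least 5.52, 4.72 and 4.70 against the floor of 3 reads. Of the 10 most read copies, LTR13_7717 was higher in siStau1 DAC by a log2 ratio of 1.14, and LTR13_8195 was lower by a ratio of −0.99.

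Copies at 0 were counted in each library. Of 559 elements with at least 20 reads in both siLuc DMSO and siStau1 DAC, 10 had none in siLuc DAC (1.79%, against 2.15% of all repeat elements and 5.37% of the LTR class): 7 MER11 copies, 2 LTR13A copies and 1 LTR22A copy. In siLuc DMSO 2 of 630 had none (0.317%, against 0.202% of all repeat elements and 0.370% of the LTR class). These were LTR3B_2624 with 0, 36 and 54 reads and MER11C_6101 with 0, 20 and 20. None of 522 had 0 reads in siStau1 DAC, which allows a share of up to 0.575%, and the background was 0.0042%. Over all repeat elements such zeros were thus most frequent in siLuc DAC. It is also the library in which the extreme copies without a read, named above, had none.

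The third comparison, siStau1 DAC over siLuc DMSO, changes both the siRNA and the drug, and their parts cannot be told apart in it. It shares a library with each of the others. Summed reads of all elements were nearly level, with a log2 ratio of 0.04 (0.03 to 0.05), and 0.36 (0.35 to 0.38) without MER11B_5954, 0.61 with the authors' factors and −0.071 with totals outside Alu. Of the 28 subfamilies 26 were higher in siStau1 DAC. The exceptions were MER11B, at −0.22 through its 1 copy (0.54 without it), and MER9a2, at −0.03 (−0.15 to 0.09). LTR22 was at 0.66, LTR3 at 0.62, LTR14 at 0.58, MER11 without its most read copy at 0.54, MER9 at 0.20 and LTR13 at 0.18. MER11 as a whole was at −0.08, and at 0.49 with the authors' factors.

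LTR3B had the highest ratio, 0.96 (0.70 to 1.22), on 177 and 399 reads. Relative to LTR13 the difference was 0.49 (0.41 to 0.56) for LTR22, 0.45 (0.35 to 0.54) for LTR3, 0.41 (0.35 to 0.46) for LTR14 (0.27, 0.20 to 0.33, without LTR14B_4127), 0.36 (0.33 to 0.40) for MER11 without its most read copy and 0.02 (−0.03 to 0.08) for MER9. Of 1025 elements with at least 20 reads, 254 (24.8%) were at least 2-fold higher and 50 (4.88%) at least 2-fold lower, against 14.5% and 8.27% of all repeat elements and 27.6% and 4.87% of the LTR class. The split was 495 and 15 with the authors' factors, and 220 and 60 with totals outside Alu. The median per element was 0.39 (0.34 to 0.48), against 0.45 for the LTR class. The highest copies were LTR22B1_2259, LTR22B_3310 and MER11B_4141 (10, 52 and 62 reads), at 2.56, 2.48 and 2.36. The lowest were all of the LTR13 group: LTR13__6610 (232, 226 and 103 reads, −1.38), LTR13_8043 (54, 30 and 24, −1.37) and LTR13_8449 (54, 51 and 24, −1.37). LTR13 made up 164 of the 499 elements ranked. Of 254 LTR13 copies with at least 20 reads, 14 (5.51%) were at least 2-fold lower, against 9.40% in MER9 and 9.89% in LTR14.

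The library with the highest level was counted for each of the 499 elements with at least 100 reads over the 3 libraries. It was siLuc DMSO in 73 (14.6%), siLuc DAC in 261 (52.3%) and siStau1 DAC in 165 (33.1%). Over all repeat elements with as many reads the shares were 38.2%, 32.4% and 29.4%, and over the LTR class 14.8%, 47.6% and 37.6%. LTR13 was the group with the largest share at its highest in siLuc DMSO, 39 of 164 copies (23.8%), against 22 of 196 in MER11 (11.2%), 5 of 54 in MER9, 3 of 41 in LTR14, 2 of 30 in LTR22 and 2 of 14 in LTR3. The highest library follows the scaling to reads on all repeats.

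Total RNA was examined for the genes named after ERVK and for known silencers of retroviral LTRs. The ERVK gene that was called, ERVK13-1 (ENSG00000260565.6, chromosome 16, 2660349 to 2673444, minus strand, GRCh38, a processed transcript), rose with DAC in siLuc cells, from 0.902 FPKM in siLuc DMSO to 4.56 in siLuc DAC, and the authors' deposited table gives this difference a q-value of 0.0149. In siStau1 cells it was 1.77 FPKM with DMSO and 3.10 with DAC, with a q-value of 0.531 there, and whether the 2 arms differ was not tested. ERVK3-1 had 31.5, 48.8, 27.8 and 48.1 FPKM (siLuc with DMSO, siLuc with DAC, siStau1 with DMSO, siStau1 with DAC), and the authors' deposited table gives 0.671 as the q-value for DAC in siLuc. ERVK9-11 was at 0.15 to 0.20 FPKM and ERVK-28 was listed at 0 in all 4 groups, and neither was tested. The table gives genes, not LTR copies, so these values say nothing of a named copy.

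Of the 7 silencers none was called in any of the 4 comparisons in the authors' deposited table. ZNF808 had 6.47, 8.24, 5.77 and 10.4 FPKM (q-value 0.823 for DAC in siLuc). TRIM28, the corepressor that KRAB zinc finger proteins recruit, had 349, 680, 328 and 486 FPKM, with a p-value of 0.0233 and a q-value of 0.172 for DAC in siLuc. DNMT1, the maintenance DNA methyltransferase, had 115, 86.2, 204 and 79.4 FPKM. SETDB1, the methyltransferases DNMT3A and DNMT3B, and UHRF1, which guides DNMT1 to newly copied DNA, were tested and not called. Over the 4 ERVK genes and the silencers, 9 of 11 were tested, and the number called was 1 for DAC in siLuc, where 13.5% of all tested genes were called, and 0 for DAC in siStau1 (7.46%), for siStau1 over siLuc with DMSO (0.799%) and for siStau1 over siLuc with DAC (0.904%). At an unadjusted p-value under 0.05 the numbers were 2, 0, 0 and 0. The table has 1 FPKM value per group, so the spread between replicates is unknown.

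J2-bound reads of an LTR were not set against total RNA of the same copy, so more RNA of a copy and a larger double-stranded part of it cannot be told apart, nor can more cells with a transcript and more transcript per cell.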

How the data were processed

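Per the submitters' processing notes, the tools were bcl2fastq 2.20, HISAT2 2.1.0, featureCounts, DESeq 1.36.0, Cuffdiff 2.2.1 and Cuffnorm 2.2.1, with the hg38 build and no role given. For J2 the authors deposited a count plus 1 for each repeat element in siLuc DMSO, and for the other libraries a signal that is the count plus 1 times 1 factor per library (1.92 for siLuc DAC, 1.27 for siStau1 DAC), whose origin is not stated. Each column was divided by its minimum and 1 subtracted. That gave whole reads for 100.0% of values within a tolerance of 0.01. For total RNA the authors deposited 1 FPKM per group with p-values and q-values, per the file headers, and their calls at a q-value under 0.05 were used, since a count test needs values per library.

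Ratios are log2 of reads scaled to each library's reads on all repeats. Sums have exact binomial intervals, and differences between groups normal-approximation intervals from the read numbers. Ratios per element have 0.5 reads added and at least 20 reads in the 2 libraries together, and their medians have order-statistic intervals. One read is 0.0140, 0.0145 and 0.0120 RPM (reads per 1000000 reads on repeats). The floor is 3 reads. Reads carry no molecular identifiers. The ratio code was checked on simulated counts. Python 3.11.15, numpy 2.4.6, pandas 2.3.3, scipy 1.17.1 and matplotlib 3.10.9 were used. Gene positions are from GENCODE on GRCh38.

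The members, lists and rules were chosen with earlier results of these data known. Named are subfamilies with at least 1000 reads (23 of 28; LTR22, LTR22C and LTR3B, with fewer, were named after their values were seen), the 10 most read elements, the 3 highest and 3 lowest ratios per comparison among elements with at least 100 reads, elements at 0 reads in 1 library where at most 5 were found, genes whose symbol starts with ERVK, and 7 silencers. The most read copies of LTR3 and LTR22 were also named after their values were seen. Alternatives were 2 other scalings, other read minimums, 1 read added, leaving out the most read element (in the differences of LTR14 from LTR13, chosen after seeing the data), and a q-value limit of 0.01.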

Additional observations from a re-analysis of the deposited data

How the results depend on the processing

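In the order siLuc DAC over siLuc DMSO, siStau1 DAC over siLuc DAC and siStau1 DAC over siLuc DMSO, the log2 ratios of summed reads of 0.19, −0.15 and 0.04 became 1.08, −0.47 and 0.61 with the authors' factors, −0.13, 0.062 and −0.071 with totals outside Alu, all 3 with the opposite sign, and 0.43, −0.067 and 0.36 without MER11B_5954. The medians per element of 0.55, −0.11 and 0.39 became 1.44, −0.43 and 0.96 with the authors' factors and 0.23, 0.10 and 0.28 with totals outside Alu. With a minimum of 1 read the first 2 were 0.32 and 0.10, so that the second changed sign. Counts beyond 2-fold of 397 and 304 in the first and last comparison became 682 and 510 with the authors' factors, and with at least 50 reads, which tests fewer elements, the counts were 205, 132 (from 305) and 142. MER11 in siStau1 DAC over siLuc DMSO went from −0.08 to 0.49 with the authors' factors and to 0.54 without its most read copy. The single gene called in total RNA became 0 at a q-value limit of 0.01. Restricting to elements with reads in both libraries, chosen after seeing the data, and adding 1 read kept medians within their intervals and counts within 1.5 times. The causes of the scaling differences were not tested. No paired analysis was possible because each J2 group has 1 library and the total RNA table gives 1 value per group, and no replicate could be left out for the same reason. Depth limits single copies, most of which had few reads or none, and the spread between cultures is unknown.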
